A study of Mus musculus with 33 samples.

Results

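The comparison described here sets hnRNP R iCLIP of cultured mouse motoneurons against hnRNP R iCLIP of NSC34 cells, both made with the same antibody (antibody 1). It uses 4 of the 33 libraries of the series, 2 per cell type, and asks which RNAs carried more hnRNP R crosslinks in one cell type than in the other, and in which parts of their genes. The members are the genes with at least 10 cDNAs summed over the 4 libraries, which were 9407 of the 36194 genes in the files. At the edge of that rule, 306 genes had exactly 10 cDNAs and 318 had 9. The motoneuron libraries came from wild-type primary cultures of strain CD-1, grown in neurobasal medium with B27, horse serum and the neurotrophic factor BDNF. NSC34 is an immortal hybrid line made by fusing mouse neuroblastoma cells with spinal cord cells, grown here in DMEM with fetal calf serum. The labels give the treatment as none for both. Whether the 2 libraries of a cell type stem from different cultures is not in the labels, and the p-values reflect the spread of these libraries alone.

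hnRNP R belongs to the hnRNP proteins, which coat nascent transcripts in the nucleus, and it is also found in the axons of motoneurons, where it interacts with SMN, the protein lost in spinal muscular atrophy. In iCLIP, ultraviolet light crosslinks a protein to the RNA it touches, the protein is pulled down with an antibody, and reverse transcription stops next to the crosslinked base. A cDNA can therefore mark a contact, but it can also be background, which a control with IgG measures. The number of cDNAs on a gene depends on that background, on how much of its RNA the cells hold and on how often hnRNP R binds it. A known partner of hnRNP R is 7SK, a short noncoding RNA that keeps the elongation kinase P-TEFb inactive by tethering it to the protein HEXIM. Long genes with large introns are typical of neurons, where they encode adhesion molecules, receptors and ion channels.

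The libraries held 359005 and 319381 cDNAs for motoneurons, and 456721 and 99762 for NSC34, so the second NSC34 library had the fewest. A control library made with IgG from NSC34 cells held 36280 cDNAs. Its file header also names hnRNP R and a shared library number with the second NSC34 library, so its identity rests on its title. No IgG library of motoneurons was used here, so the background of the motoneuron libraries is unknown. Over the 9407 genes, log2 CPM (cDNAs per 1000000 of a library) correlated at 0.916 between the motoneuron libraries and at 0.900 between the NSC34 libraries, but at only 0.394 to 0.410 across cell types. These correlations are across genes, which are not independent replicates.

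The label of the motoneuron libraries was checked against cell type markers before the results, and it was not borne out by their crosslinks. Of 17 motoneuron markers in the files, 10 had 0 cDNAs in both motoneuron-labelled libraries, among them the transcription factors Isl1, Isl2, Mnx1 and Lhx3 and the acetylcholine genes Chat and Slc5a7. Summed over the list, the motoneuron-labelled libraries held 256 and 304 CPM, against 1112 and 752 in NSC34 and 1571 with IgG. Of 7 that were tested, 1 (Gfra1, a GDNF receptor) was higher in the motoneuron-labelled libraries by the test described below. Another 4 (Ret, Foxp1, Isl1 and Prph) were higher in NSC34. A second tool, DESeq2, called Gfra1 and 1 of these 4. Isl1 and Prph each had only 15 and 1 cDNAs in the NSC34 libraries. Genes that mark other neurons were present: 14 of 17 had a cDNA, and their sum was 1298 and 1212 CPM in the motoneuron-labelled libraries against 30.7 and 50.1 in NSC34. They included Slc17a6, the vesicular glutamate transporter, with 98 and 77 cDNAs, Gad2, the GABA-producing enzyme, with 68 and 45, and Reln, a secreted guide of neuronal migration, with 155 and 109. These genes also had RNA in the authors' deposited table of control motoneuron cell bodies, with 23.6, 16.6 and 24.7 FPKM. There the motoneuron marker Gfra1 had 26.2 FPKM. RNA levels of the motoneuron markers at 0 cDNAs are not reported here. A count of crosslinks is not a level of RNA, and genes that are short or rarely bound can be at 0 while expressed. The libraries are therefore called motoneuron-labelled below, and no other cell type name is given to them. In NSC34, Mnx1, Lhx3 and Slc5a7 were also at 0 cDNAs and Chat had 1 in each library, while Hand2, a transcription factor of sympathetic neurons and their tumours, had 35 and 12 cDNAs.

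The cDNA counts per gene differed widely between the cell types. Of the 9407 genes, 3570 (38%) differed at an adjusted p under 0.05 by edgeR's quasi-likelihood test. Of these, 2054 (21.8% of the genes tested) had more cDNAs in the motoneuron-labelled libraries and 1516 (16.1%) had more in NSC34. The differences were large, with 1353 and 891 of these genes past 4-fold, and 366 and 224 genes had 0 cDNAs in both libraries of the other cell type. The groups did not overlap for 3269 genes higher in the motoneuron-labelled libraries (34.8%) and 3042 higher in NSC34 (32.3%), called or not. DESeq2 called 1704 genes (18.1%), 1285 (13.7%) and 419 (4.45%), all in the same direction as edgeR.

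How many genes fell on each side depended on the scaling. The counts above rest on TMM, which sets the bulk of genes to a ratio near 1, and the median log2 ratio was -0.04. Scaling by library totals moved that median by -0.80 and gave 1353 genes higher in the motoneuron-labelled libraries against 3490 higher in NSC34. Without the deeper NSC34 library (replicate 1), the counts were 1305 and 622 of 7242 genes. All ratios below are motoneuron-labelled over NSC34 on the TMM scale, and so relative to the typical gene.

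**Figure D1:**
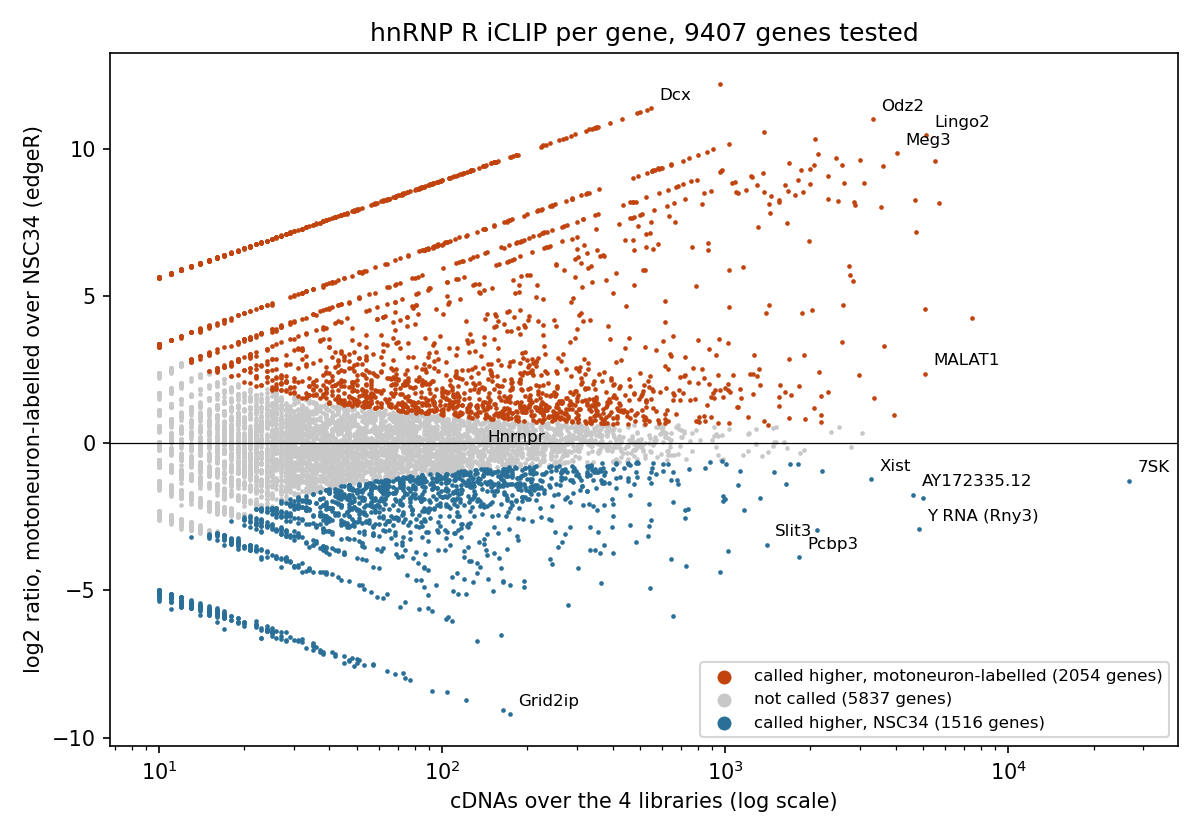
Log2 ratio of hnRNP R cDNAs (motoneuron-labelled over NSC34, vertical) against the cDNAs of each gene over the 4 libraries (horizontal, log axis) for 9407 genes, with 2054 called higher in motoneuron-labelled libraries and 1516 called higher in NSC34. The outer diagonal lines are genes at 0 cDNAs in 1 cell type, where the fitted ratio depends on the prior count; among genes with many cDNAs the largest ratios lie on the motoneuron side.

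The genes with the most cDNAs that rose in the motoneuron-labelled libraries were mostly long genes of synapses and neuronal surfaces. Cntnap2, an axonal adhesion protein (mm9 chr6:45010060-47251368, plus strand), had 10036 and 12326 normalised CPM (with TMM library sizes) in the motoneuron-labelled libraries, against 38.8 and 36.7 in NSC34. Every motoneuron-labelled value stood far above every NSC34 value, and the gap between cell types was many times the gap between replicates. Its log2 ratio was 8.18 ± 0.41 (SE), with edgeR adjusted p = 5.25e-84. In introns lay 99.9% of its motoneuron cDNAs.

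Ptprd, a receptor phosphatase of synapses, had 3380 and 2132 cDNAs in the motoneuron-labelled libraries against 8 and 2 in NSC34 (log2 9.57 ± 0.46, adjusted p = 3.11e-92). Lingo2, a leucine-rich repeat surface protein, had 3006 and 2111 against 5 and 0 (log2 10.46 ± 0.49, adjusted p = 1.42e-95). Odz2, the older symbol of the teneurin Tenm2, had 1658 and 1664 against 1 and 1 (log2 11.00 ± 0.53). These genes were close to absent from the NSC34 libraries. Nrg3, a ligand of ErbB4 receptors, differed less, with 2409 and 2388 against 247 and 50 cDNAs (log2 4.58 ± 0.32). Cadm2 (log2 7.18 ± 0.38) and the protocadherin Pcdh9 (log2 8.28 ± 0.42), both adhesion molecules, had 2364 and 2301 and 1976 and 2684 cDNAs in the motoneuron-labelled libraries, against 40 and 7 and 16 and 5 in NSC34.

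Dlg2, a scaffold protein of postsynaptic sites, was the most even of the 10 most counted genes on this side. It had 5016 and 3574 normalised CPM in the motoneuron-labelled libraries, against 2509 and 1864 in NSC34, and a log2 ratio of 0.97 ± 0.27 (edgeR adjusted p = 0.0014). On this scale the groups did not overlap, whereas per library total they did, and the motoneuron-labelled values differed from each other by more than the lower of them differed from the higher NSC34 value, and the call was lost without NSC34 replicate 2, where the log2 ratio was 0.78.

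**Figure D2:**
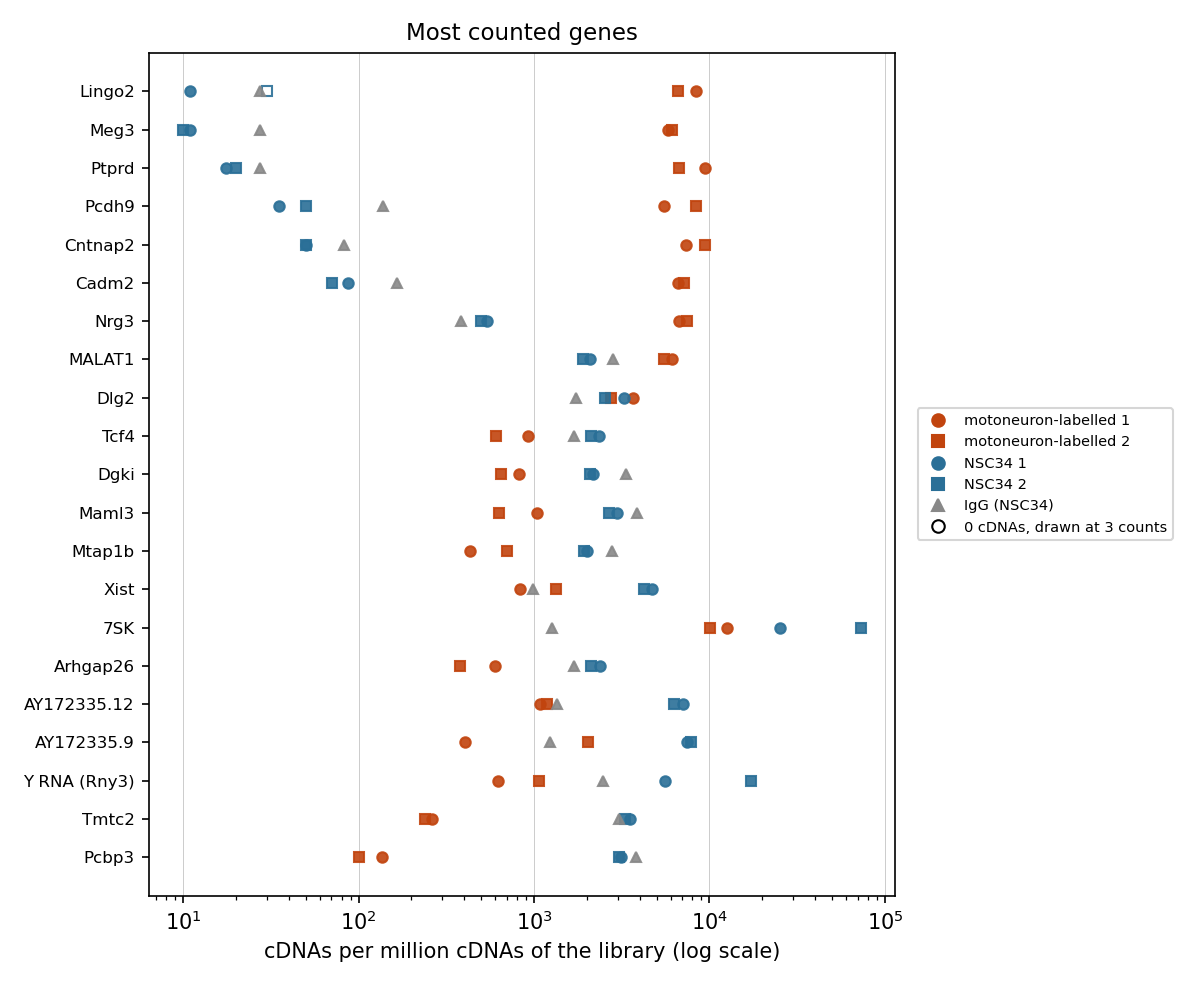
hnRNP R CPM of library total (horizontal, log axis) in each motoneuron-labelled, NSC34 and IgG library for most of the called genes with the most cDNAs in each direction and the most counted noncoding RNAs; an open symbol marks 0 cDNAs, drawn at 3 counts. Cntnap2, Ptprd, Lingo2 and Meg3 stand orders of magnitude apart between cell types, whereas Dlg2 overlaps on this scale; the IgG library lies near NSC34 for Pcbp3 and Tmtc2 and far below it for 7SK (1268 against 25390 and 73485).

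A further set of genes had no NSC34 cDNA at all, so their fold is a lower bound against a limit of 3 cDNAs over both NSC34 libraries. Dcx, a microtubule protein of young neurons, had 259 and 287 cDNAs and was at least 261-fold higher. The potassium channel genes Kcnma1 and Kcnc2 had 282 and 246 and 260 and 89 cDNAs (at least 253-fold and 167-fold higher), and the calcium channel gene Cacna1d had 223 and 168 (at least 187-fold). The glutamate receptor genes Grm3 and Gria1 had 216 and 273 and 262 and 169 cDNAs, and were at least 234-fold and 206-fold higher. Hecw1, a ubiquitin ligase, Nav2, a cytoskeletal regulator, and Edil3, a matrix protein, were at least 239-fold, 169-fold and 168-fold higher. Kcnc2 and Edil3 varied most between their own motoneuron-labelled replicates, with 988 against 363 and 467 against 929 normalised CPM.

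Described by function, the neuronal gene lists lay mostly on the motoneuron side. The counts that follow are descriptions, since a gene that is high in only one cell type passes the filter through that cell type. Over all genes tested, 21.8% were higher in the motoneuron-labelled libraries and 16.1% in NSC34. Among synaptic and neuronal adhesion genes, 40 of 41 were tested, 36 had more cDNAs in the motoneuron-labelled libraries and 0 had more in NSC34, with a median log2 ratio of 5.95 against -0.04 over all genes tested. Their cDNAs summed to 88935 and 85127 CPM in the motoneuron-labelled libraries, against 8622 and 7648 in NSC34 and 8214 with IgG. The 4 tested members without a call were Nlgn2, Cntnap1, Cadm1 and L1cam, with log2 ratios of 1.55, -1.48, -0.30 and -0.19.

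Neurotransmitter receptor genes summed to 26236 and 27453 CPM in the motoneuron-labelled libraries against 635 and 772 in NSC34. Of 37 tested members 34 rose, 1 fell and the median log2 ratio was 7.40. The kainate receptor gene Grik2 had 1212 and 1782 cDNAs against 2 and 3 (log2 9.62 ± 0.48), and the metabotropic receptor genes Grm5 and Grm7 had 1146 and 1311 against 3 and 1 and 1256 and 864 against 2 and 1. The member that fell was Chrna3, a nicotinic receptor subunit of autonomic ganglia, with 0 and 0 cDNAs in the motoneuron-labelled libraries and 14 and 3 in NSC34.

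Ion channels followed the same pattern, with 30 of 35 tested members higher and 0 lower (median log2 4.95). Kcnd2, a fast-inactivating potassium channel, had 1132 and 1156 cDNAs against 254 and 54 (log2 3.44 ± 0.29), while Kcnip4, which binds that channel family, had 912 and 1382 against 6 and 0 (log2 9.07 ± 0.46). Cacna2d1, an auxiliary calcium channel subunit, had 992 and 622 against 240 and 52 (log2 3.00 ± 0.29). Protocadherins and cadherins had 23 of 27 tested members higher and 1 lower. Pcdh7 and Cdh8 had 795 and 1256 and 515 and 537 cDNAs against 4 and 0 and 3 and 0, whereas Cdh2 (N-cadherin), present in both, had 554 and 440 against 250 and 49 (log2 2.30 ± 0.27). Cdh22 went the other way with 8 and 5 against 115 and 24 (log2 -2.86 ± 0.44).

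Axon guidance genes were more mixed. Of 31 tested, 22 were higher in the motoneuron-labelled libraries and 2 in NSC34, against 21.8% and 16.1% of all genes tested. The guidance receptor Robo2 had 1046 and 599 cDNAs against 11 and 2 (log2 7.47 ± 0.41), while Slit3, which encodes a ligand of Robo receptors, had 32 and 44 against 1145 and 179 (log2 -3.45 ± 0.30, edgeR adjusted p = 1.11e-29). A receptor and a ligand of one pathway thus stood at opposite ends. The netrin receptor genes Unc5c and Unc5b also split, with log2 ratios of 1.61 ± 0.27 and -3.78 ± 0.52. Efna5, an ephrin ligand, had a small ratio of 0.82 ± 0.26 that became -0.0055 when scaled by library totals.

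Genes for the presynaptic machinery, the axonal cytoskeleton and motor proteins shifted less. Of 35 presynaptic genes tested 20 were higher and 1 lower (median log2 1.15), of 34 cytoskeletal genes 19 and 4 (median 1.40), and of 23 motor genes 14 and 1 (median 1.01). The shares over all genes tested were 21.8% higher and 16.1% lower. Within the presynaptic list the active-zone gene Rims1 had 559 and 474 cDNAs against 1 and 0 (log2 10.16 ± 0.56), but the vesicle calcium sensor gene Syt1 had 573 and 561 against 891 and 161, a log2 ratio of 0.72 ± 0.26 that DESeq2 did not call (adjusted p = 0.0683). Among the microtubule-associated proteins, Mtap2 (Map2), of dendrites, had 949 and 795 against 98 and 20 cDNAs (log2 4.43 ± 0.31), while Mtap1b (Map1b), of growing axons, had 156 and 224 against 912 and 192 (log2 -0.97 ± 0.26). Map2 and Map1b stood in opposite directions although both are textbook neuronal genes.

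**Figure D3:**
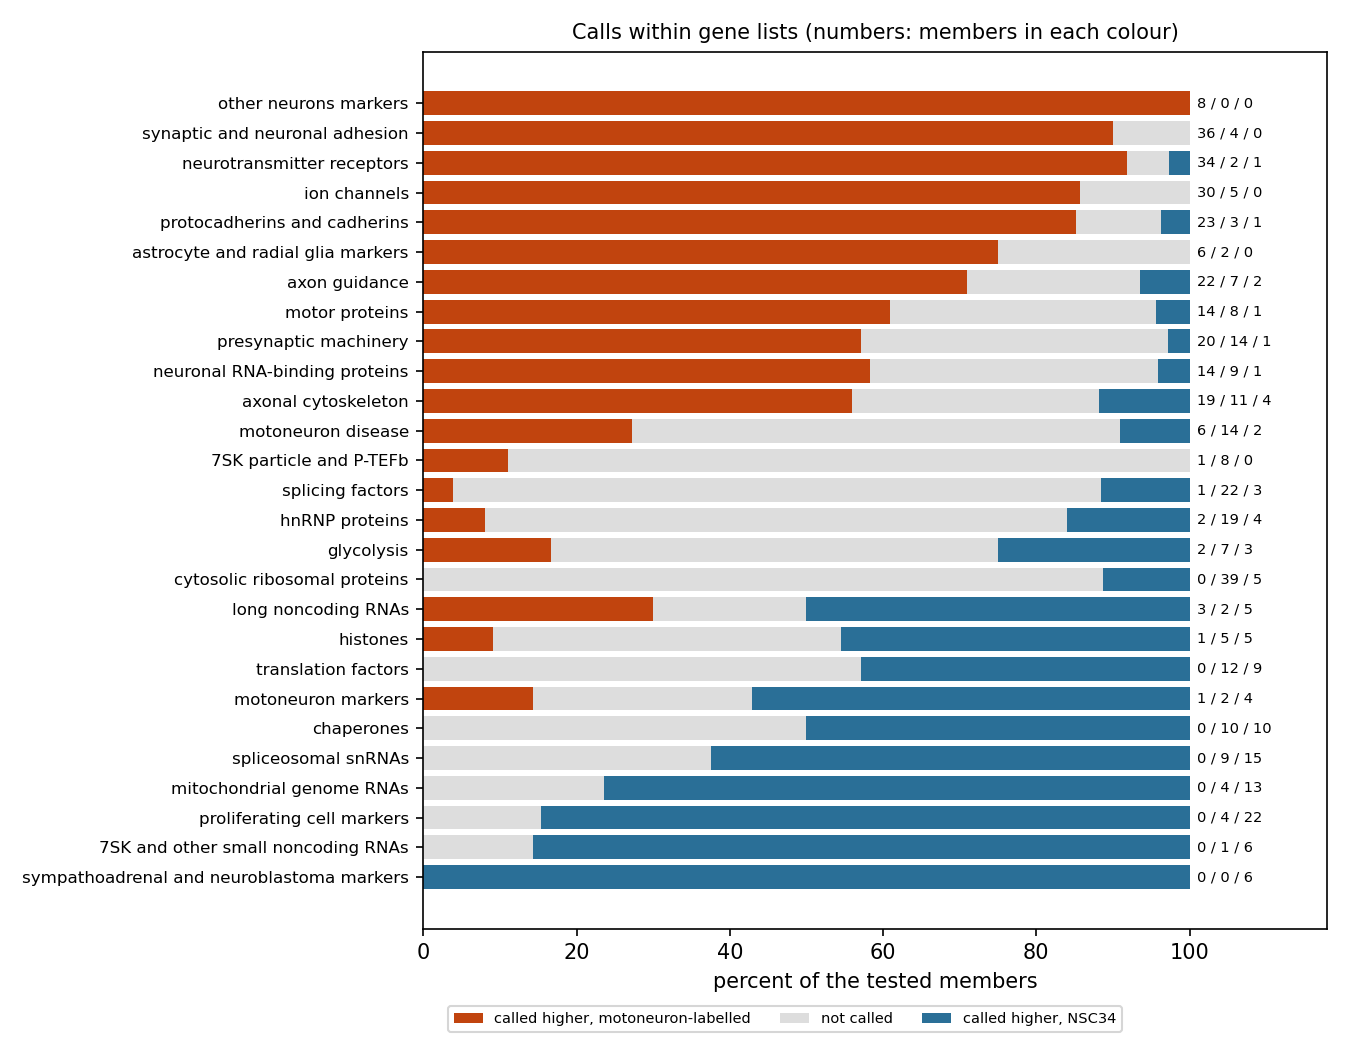
Percent of each list's tested genes called higher in the motoneuron-labelled libraries and higher in NSC34 (edgeR adjusted p under 0.05), for lists with at least 6 tested genes (snoRNAs and the other 7SK copies are not drawn); the numbers at the right count members higher in motoneuron-labelled libraries, not called and higher in NSC34. Adhesion, receptor, ion channel and cadherin lists lie on the motoneuron side, and proliferation markers, small nuclear RNAs and mitochondrial RNAs on the NSC34 side.

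Genes of RNA-binding proteins were mixed. For comparison, 21.8% of all genes tested were higher and 16.1% lower in the motoneuron-labelled libraries. Of 24 neuronal RNA-binding protein genes tested, 14 were higher in the motoneuron-labelled libraries, led by A2bp1 (Rbfox1), a splicing regulator of neurons, with 1544 and 1149 cDNAs against 63 and 12 (log2 5.71 ± 0.34), and Cugbp2 (Celf2) with 977 and 564 against 4 and 3 (log2 8.19 ± 0.44). Only Msi1, a marker of neural progenitors, was lower in this list, with 6 and 4 against 35 and 6. The paralogue of Rbfox1, Rbm9 (Rbfox2), had 265 and 279 against 399 and 89, and its log2 ratio of 0.69 ± 0.26 turned to -0.13 with library totals. Of the hnRNP genes 19 of 25 and of the splicing factor genes 22 of 26 had no call, as had 62.0% of all genes tested, with 2 higher and 4 lower and 1 higher and 3 lower among the rest. The transcript of hnRNP R itself carried few crosslinks in each library, 25 and 24 cDNAs against 72 and 14, and its log2 ratio of -0.26 ± 0.37 was not a call (edgeR adjusted p = 0.622). Hnrnpab, an hnRNP gene, was the clearest member on the NSC34 side with 12 and 12 against 162 and 37 cDNAs (log2 -2.52 ± 0.37).

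Of 22 genes linked to motoneuron disease that were tested, 6 rose and 2 fell (median log2 0.30), not far from the 21.8% and 16.1% of all genes tested, and DESeq2 called 1 of them. Among those that fell, the kinase gene Tbk1 had 6 and 11 against 76 and 16 (log2 -1.88 ± 0.45). Those that rose included Kif5a, an axonal motor, and Spast and Atl1, genes of hereditary spastic paraplegia, with log2 ratios of 1.23 ± 0.39, 1.29 ± 0.39 and 2.06 ± 0.44. Their counts were small: 39 and 32 cDNAs against 30 and 11, 32 and 40 against 34 and 8, and 31 and 37 against 18 and 5. Per library total Kif5a overlapped between cell types, with 109 and 100 CPM against 65.7 and 110.

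The neuronal lists moved together with the markers of other neurons, 8 of 8 tested higher and 0 lower, against 21.8% and 16.1% of all genes tested. Astrocyte and radial glia markers also had more cDNAs in the motoneuron-labelled libraries, with sums of 760 and 667 CPM against 346 and 251, and 6 of 8 tested were higher. Their defining members Gfap and Aqp4 were at 0 cDNAs in all 4 libraries, while Slc1a2, a glutamate transporter, had 188 and 108 against 96 and 14. Microglia, fibroblast and oligodendrocyte markers stayed at or below 80.8 CPM in every library of the comparison, with 1, 1 and 3 genes tested and a single call, Mbp of myelin (16 and 5 cDNAs against 2 and 0). Of 2 endothelial markers tested 1 was lower, Vwf. The part of these other cell types in the results was not tested.

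Among noncoding RNAs, the long nuclear RNAs MALAT1 and Meg3 rose while Xist and most of the abundant short RNAs fell. MALAT1, of nuclear speckles (chr19:5795690-5802671, minus strand), had 8326 and 7155 normalised CPM against 1609 and 1394 (log2 2.36 ± 0.29, edgeR adjusted p = 2.3e-15). The imprinted Meg3 (chr12:110779211-110809932, plus strand) had 2093 and 1948 cDNAs against 5 and 1 (log2 9.85 ± 0.48), and Snhg11 had 261 and 482 against 1 and 0. The annotation used here gives Snhg11 as protein-coding, and 97.3% of its motoneuron cDNAs count as 3'UTR. Xist, the RNA that coats the inactive X chromosome, had 1140 and 1736 normalised CPM against 3600 and 3089 (log2 -1.22 ± 0.27, adjusted p = 2.94e-05), and Pvt1, next to the Myc gene, had 16 and 21 cDNAs against 419 and 77 (log2 -3.14 ± 0.32). Of 10 long noncoding RNAs tested, 3 were higher in the motoneuron-labelled libraries and 5 in NSC34, against 21.8% and 16.1% of all genes tested.

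7SK was the most counted RNA in all 4 libraries (chr9:78023110-78023440, minus strand). It had 4526 and 3239 cDNAs in the motoneuron-labelled libraries and 11596 and 7331 in NSC34, which is 17199 and 13198 normalised CPM against 19537 and 53787. The motoneuron-labelled values and the first NSC34 value lay close together, and the second NSC34 library stood far above them. The log2 ratio was -1.27 ± 0.31 with edgeR (adjusted p = 2.03e-04), but DESeq2 did not call it (adjusted p = 0.272), and without NSC34 replicate 2 the ratio was -0.36 and not a call (adjusted p = 0.46). The IgG library had 46 cDNAs, or 1268 CPM of its total against 25390 and 73485 in NSC34. In the authors' deposited table of control motoneuron cell bodies, 7SK stood at 9892 FPKM. Near-identical copies of 7SK elsewhere in the genome can share its reads. Of 27 such copies tested 4 were higher and 2 lower, against 21.8% and 16.1% of all genes tested. Of 9 genes for proteins of the 7SK particle and P-TEFb, 1 was called, against 38% of all genes tested. It was Ell2, an elongation factor, with 9 and 5 cDNAs against 0 and 0.

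Other abundant short RNAs (of 7 small noncoding RNAs tested, 7SK among them, 6 fell and 0 rose) were also lower in the motoneuron-labelled libraries, and the ratios of the 3 named here shrank without NSC34 replicate 2 but stayed past the threshold. The Y RNA Rny3 (chr6:47731623-47731724, plus strand) had 855 and 1394 normalised CPM, against 4268 and 12700 (log2 -2.91 ± 0.29, edgeR adjusted p = 7.93e-22), and the ratio without NSC34 replicate 2 was -1.93. Another Y RNA, nearby on the other strand, had 289 and 501 against 851 and 2142 (log2 -1.89 ± 0.27). RNase MRP RNA, which processes ribosomal RNA, had 3 and 2 cDNAs against 46 and 21 (log2 -3.34 ± 0.61). In each case both NSC34 libraries were above both motoneuron-labelled ones, and the second NSC34 library was the highest of the 4. Of 24 spliceosomal RNA copies tested, 15 fell and 0 rose (median log2 -2.42), and DESeq2 called 10. The list summed to 432 and 241 CPM in the motoneuron-labelled libraries, against 1533 and 4190 in NSC34 and 4879 with IgG. Copies of U1 were among those that fell, and their near-identical sequences make the assignment of a read to 1 copy uncertain. Of 8 snoRNAs tested 2 were higher and 2 lower, against 21.8% and 16.1% of all genes tested.

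RNAs of the mitochondrial genome made up 1886 and 3579 CPM in the motoneuron-labelled libraries, against 17516 and 16349 in NSC34 and 5871 with IgG. Of 17 tested 13 fell and 0 rose, against 16.1% and 21.8% of all genes tested. The larger ribosomal RNA (chrM:1094-2675) had 388 and 377 cDNAs against 3224 and 630 (log2 -1.74 ± 0.27). The smaller one (chrM:70-1024) had 551 and 2657 normalised CPM against 5738 and 5759. Its motoneuron-labelled libraries differed from each other more than the second of them differed from NSC34 on a ratio scale, and DESeq2 did not call it (adjusted p = 0.226). Among the messenger RNAs, mt-Cytb, of respiratory complex III, had 17 and 26 cDNAs against 436 and 57 (log2 -2.81 ± 0.31).

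Genes of dividing cells lay on the NSC34 side, and calls among chaperone and translation factor genes were on that side too. Of 26 proliferation markers tested, 22 fell and 0 rose in the motoneuron-labelled libraries (median log2 -3.60), and DESeq2 called 12 of them. The list summed to 128 and 153 CPM against 2538 and 2235 in NSC34 and 2949 with IgG. The topoisomerase gene Top2a had 1 and 3 cDNAs against 134 and 26 (log2 -4.69 ± 0.54), and Mki67, the Ki-67 antigen, had 1 and 2 against 102 and 8. All 6 tested sympathoadrenal markers fell, of which DESeq2 called 2. That list summed to 44.6 and 43.8 CPM against 385 and 541 in NSC34 and 799 with IgG. Of 20 chaperone genes 10 fell and of 21 translation factor genes 9 fell, with 0 rising in either list, whereas DESeq2 called 3 and 2. The chaperone genes summed to 554 and 726 CPM against 2579 and 2576 in NSC34 and 3694 with IgG, and the translation factor genes to 1206 and 1356 CPM against 3551 and 3318 in NSC34 and 4548 with IgG. Canx, a chaperone of the endoplasmic reticulum, had 32 and 30 cDNAs against 211 and 40 (log2 -1.44 ± 0.31), and Pabpc1, which binds poly(A) tails, had 13 and 4 against 82 and 17 (log2 -1.99 ± 0.44). Ribosomal protein genes had few crosslinks in any library. Of 44 tested 5 fell, against 16.1% of all genes tested, and DESeq2 called 0 of them. Glycolysis and histone genes were mixed, with 2 higher and 3 lower of 12 and 1 higher and 5 lower of 11. Over all genes tested the shares were 21.8% higher and 16.1% lower. The replication histones Hist1h4a and Hist1h4d were among those lower.

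The most counted protein-coding genes higher in NSC34 were not housekeeping genes but long genes read in their introns. Pcbp3, a poly(C)-binding protein (chr10:76224602-76424632, minus strand), had 186 and 130 normalised CPM in the motoneuron-labelled libraries against 2416 and 2230 in NSC34 (log2 -3.87 ± 0.30, edgeR adjusted p = 8.69e-36). Tmtc2, a membrane protein of the endoplasmic reticulum, had 357 and 310 against 2713 and 2421 (log2 -2.94 ± 0.28). Arhgap26, a GTPase-activating protein, had 813 and 493 against 1835 and 1555 (log2 -1.38 ± 0.26). In these 3 genes the NSC34 replicates lay close to each other. Maml3, a Notch coactivator, Tcf4, a transcription factor, and Dgki, a diacylglycerol kinase, had smaller ratios of -0.93, -0.71 and -0.71 that DESeq2 did not call.

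Genes with 0 cDNAs in both motoneuron-labelled libraries were led by Grid2ip, with 142 and 32 cDNAs in NSC34 (at least 40.4-fold lower in the motoneuron-labelled libraries), Stra6, the retinol transporter, with 139 and 25 (at least 38.1-fold) and Emid1 with 96 and 25 (at least 28.1-fold). Pir, Nxf3, Hmmr, Bag3, Mrvi1, Gch1 and Traf3ip2 followed, at least 14.9-fold to 24.2-fold lower. Gch1 makes the cofactor of tyrosine hydroxylase, and Hmmr is a spindle protein. The IgG library also held 30 cDNAs of Grid2ip, 24 of Stra6 and 27 of Emid1.

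Few genes stood apart from the IgG control in NSC34. Between the NSC34 libraries and IgG, edgeR called 13 of the 9407 genes higher in NSC34 (0.138%) and 25 lower (0.266%), with a single IgG library assumed to vary like the others. Named after their values were seen, the genes above IgG included 7SK, both mitochondrial ribosomal RNAs, Xist, Rny3 and the messenger RNAs of Snap25, Mbnl1, Rbm39, Rtn3 and Ogt. Pcbp3 had 3831 CPM with IgG against 3140 and 3047 in NSC34. For most genes higher in NSC34 an excess over the control was not detectable at 36280 IgG cDNAs.

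Crosslinks in the motoneuron-labelled libraries were concentrated on very long genes. Genes spanning over 400 kb held 35.9% ± 0.488 of their cDNAs, against 10.4% ± 0.789 in NSC34 (SD, n = 2 each), and 11.3% with IgG (exact 95% interval 11.0 to 11.6). Genes under 10 kb held 4.12% ± 0.118 against 13.0% ± 4.71, where the NSC34 libraries had 9.69% and 16.3%. In both classes the groups did not overlap. Of 318 genes over 400 kb, 244 (76.7%) had more cDNAs in the motoneuron-labelled libraries and 24 (7.55%) in NSC34, with a median log2 ratio of 4.39. From 100 to 400 kb the shares were 48.7% and 14.7%, from 50 to 100 kb 25.1% and 17.0%, from 10 to 50 kb 9.86% and 16.1%, and under 10 kb 7.55% and 19.4%. The share called higher in the motoneuron-labelled libraries thus rose at each step of length.

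Depth moved with length: a gene under 10 kb had a median of 17 cDNAs over the 4 libraries and one over 400 kb had 552.5, so calls were easier in long genes, and the part of this in the shares was not tested. The median ratio also rose at each step, with log2 values of -0.67, -0.30, 0.18, 0.88 and 4.39. It covers only genes that passed the filter of 10 cDNAs, which a gene can pass through 1 cell type alone. The median span was 107 kb for genes higher in the motoneuron-labelled libraries, 34.7 kb for those higher in NSC34 and 29.1 kb for those not called.

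**Figure D4:**
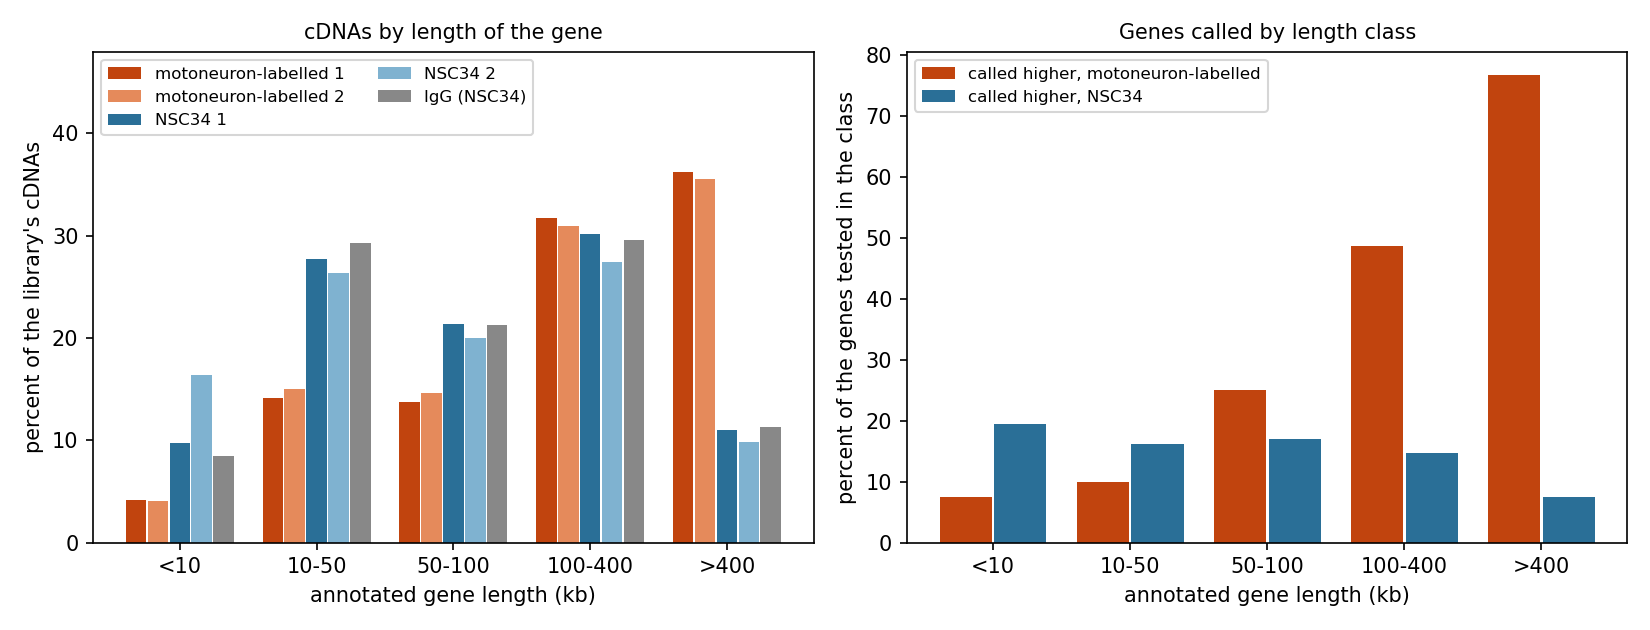
Left, percent of each library's cDNAs on genes of each genomic span class; right, percent of tested genes in each class called higher in motoneuron-labelled libraries or in NSC34. Genes over 400 kb hold 36.2% and 35.5% of cDNAs in the motoneuron-labelled libraries against 11.0% and 9.86% in NSC34, and 76.7% of them were called higher in the motoneuron-labelled libraries.

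Where the crosslinks lay within genes differed in the same direction for every mature part. Introns held 87.3% ± 1.13 of cDNAs in the motoneuron-labelled libraries (88.1% and 86.5%) against 74.0% ± 4.65 in NSC34 (77.3% and 70.7%), a difference of 13.3 percentage points. Coding sequence (the ORF column) held 3.23% ± 0.277 against 6.85% ± 0.0262, the 3'UTR 6.17% ± 0.955 against 9.26% ± 0.0387, and the 5'UTR 0.160% against 0.333%. Noncoding RNAs held 3.12% ± 0.0631 against 9.55% ± 4.67, where the NSC34 libraries themselves had 6.25% and 12.8% (SD, n = 2 each throughout). The groups did not overlap in any of the 5 parts. With 2 against 2 libraries the exact two-sided permutation p cannot go below 0.333, which is the value for each. Counting error was small, since the exact 95% interval was at most 0.566 points wide in any of the 4 libraries. With IgG the shares were 76.2% in introns and 12.1% in coding sequence, the second above that of every hnRNP R library of the comparison.

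**Figure D5:**
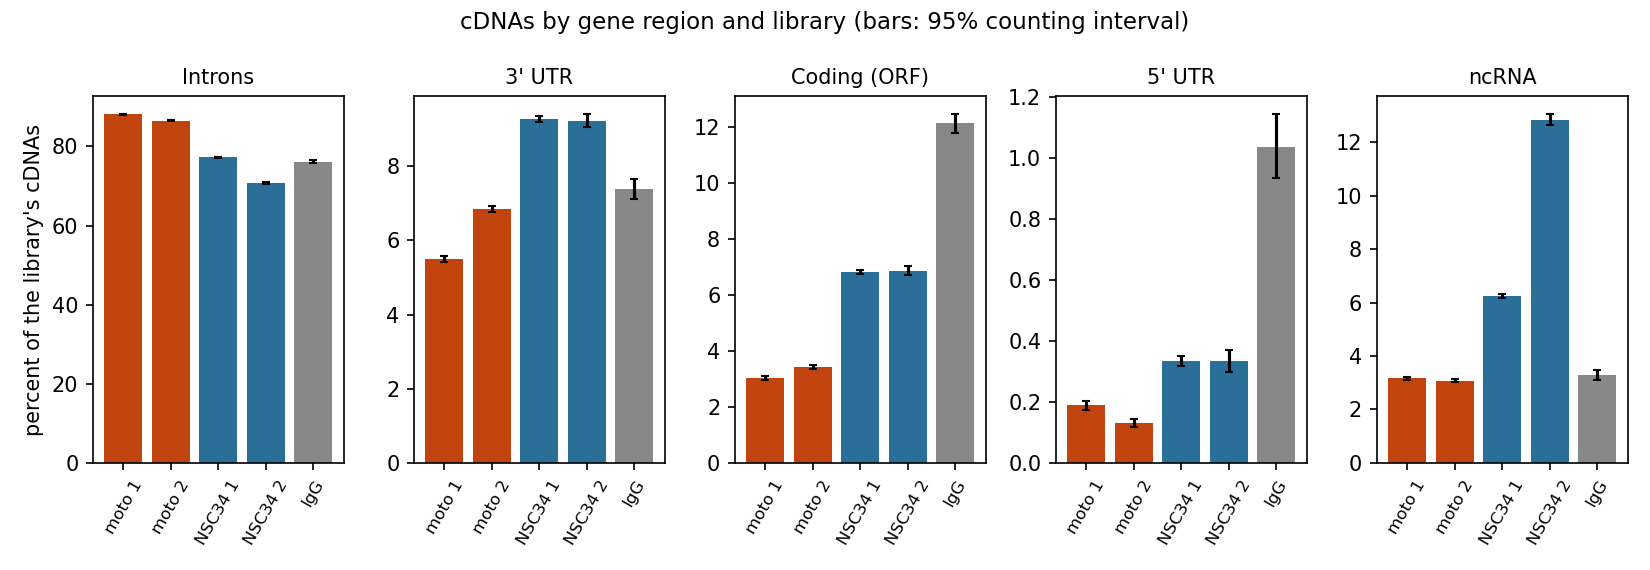
Percent of cDNAs in introns, 3'UTR, coding sequence (ORF), 5'UTR and noncoding RNAs for each motoneuron-labelled, NSC34 and IgG library, 1 panel per part with its own axis from 0; error bars are exact 95% counting intervals. The motoneuron-labelled libraries are highest in introns (88.1% and 86.5%) and lowest in coding sequence (3.03% and 3.42%).

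The shift between parts was much smaller over a fixed set of genes, which held 55.4% of the cDNAs of the 4 libraries. Genes near absent from NSC34, such as Cntnap2, Ptprd and Lingo2, were not in that set. Among 1955 genes with at least 10 cDNAs in each library, given the same weight in every library, introns held 82.7% and 81.1% in the motoneuron-labelled libraries against 80.5% and 80.0% in NSC34, a difference of 1.64 points in place of 13.3. The coding share was then 3.37% and 4.02% against 4.71% and 5.06%, still without overlap, while the 3'UTR shares overlapped. The noncoding difference of -6.43 points rested on a few short RNAs: without 7SK it was -2.87, and without all small noncoding and mitochondrial RNAs it was 0.16 points, with the opposite sign. This alternative and the equal weights were added after the data were seen.

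Within single genes, the split between introns and mature parts gave no call. For 3442 genes with at least 10 cDNAs in both, edgeR's interaction test called 0% (0 genes, smallest adjusted p = 0.145), as did DESeq2. At an unadjusted p under 0.05 there were 325 genes with edgeR (9.44%) and 108 with DESeq2, and of the 325, 251 had a higher intron share in the motoneuron-labelled libraries and 74 a lower one. Over the 3442 genes the median intron share was 82.4% and 80.7% against 75% and 75%, and 2221 genes had a ratio above 0. Cd164, a sialomucin and the gene with the lowest p, had 3 intron and 0 mature cDNAs and 8 and 1 in the motoneuron-labelled libraries, against 29 and 112 and 5 and 27 in NSC34. Luc7l, a U1-associated splicing factor, went the other way, with 11 intron and 19 mature cDNAs and 6 and 26 against 63 and 25 and 6 and 1.

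The fractionated libraries of the same antibody, 1 nuclear and 1 cytoplasmic per cell type, were not used to choose or test the genes. Of the 1177 genes higher in motoneuron-labelled libraries that had at least 10 cDNAs in the nuclear pair, 80.5% were also higher in CPM there, as were 4.55% of 527 genes higher in NSC34 and 24.6% of 1497 genes not called. In the cytoplasmic pair the shares were 92.3%, 53.2% and 73.9%, each above that in the nuclear pair. Its motoneuron library was far deeper, so a gene could pass the filter through that library alone. A single NSC34 cDNA there was already 280 CPM. The cytoplasmic shares therefore cannot show whether the direction held. The NSC34 cytoplasmic library held only 3569 cDNAs, with 26.4% in introns and 39.9% in noncoding RNAs, against 87.5% in introns for the motoneuron cytoplasmic library of 194816 cDNAs. The nuclear libraries were alike in this respect, with 91.5% and 91.8% in introns. A fit of these 4 libraries alone with fraction as a block called 0 of 5040 genes with edgeR, and 222 had an unadjusted p under 0.05.

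RNA levels were available for motoneurons only. In the authors' deposited table, genes higher in the motoneuron-labelled libraries had a median of 10.5 FPKM in control motoneuron cell bodies, those higher in NSC34 4.76 FPKM and those not called 8.78 FPKM. By the authors' deposited table, 95.1% of the first set and 81.9% of the second reached 1 FPKM. Without NSC34 RNA values, more crosslinking per RNA and more RNA cannot be told apart.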

How the data were processed

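The iCLIP files hold whole-number counts of cDNAs per gene and library, deposited by the authors with 1 file per library; per the file headers they use build mm9 and Ensembl release 59. Per the labels, libraries followed a published iCLIP protocol. The steps of trimming, mapping and collapsing were not given in the sources used here. Sense-strand cDNAs per gene were used, and 1177 further columns of per-sample values were not. The FPKM values are the authors' group values from their deposited table of control cell bodies, made with Cufflinks 2.2.1 after FastQC 0.10.1, per the submitters' processing notes. Starts and ends in the files were read as counted from 0 and are given from 1. Gene names of the reference tables were used for older symbols only.

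The 4 libraries were fitted with edgeR 4.0.16 (R 4.3.3) over genes with a sum of at least 10 cDNAs (TMM, quasi-likelihood, two-sided, Benjamini-Hochberg over all genes tested at 0.05), with DESeq2 1.42.0 as an alternative. Normalised CPM values use TMM library sizes. Sums over lists, fractionated libraries and IgG use library totals. Introns and mature parts were compared by an interaction term with library as a block. Region shares have exact Clopper-Pearson intervals at 95%, and a count of 0 allows up to 3 cDNAs; both cover counting error only. The scripts were tested on simulated data.

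The 33 gene lists, the members and the tests were chosen with earlier results of these data known. Genes were named by rule: per direction, the 10 called genes with the most cDNAs and the 10 with the largest ratio among those with at least 50 cDNAs, up to 4 members per list and direction, the 5 most counted per cell type, 7SK and Hnrnpr; the text gives those that matter, and a few items are not reported here. Replicate pairs of a cell type differed by more than sampling noise (chi-square per degree of freedom 3.80 and 2.73), so each library counts as 1 replicate. The alternatives were other scalings, filters and tools, each library left out in turn, a replicate block, IgG in the fit and the fractionated libraries.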

Additional observations from a re-analysis of the deposited data

Results flagged for a closer look

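In 9 of the named genes the value for motoneuron minus NSC34 had opposite signs in the nuclear and the cytoplasmic libraries. Each value is 1 library against 1, motoneuron minus NSC34 in CPM of library total, and the difference between fractions was not tested. Dlg2 was -2029 in the nuclear pair and 3311 in the cytoplasmic pair, Unc5c -36.9 and 2158, and Syt1 -1040 and 1504. Kif1b was -55.1 and 421, Rbm9 -26.7 and 760, Maml3 -1187 and 541, Dgki -1541 and 454, and Mtap1b -1065 and 133. These 8 genes were lower in the motoneuron nuclear library, and the sign in the cytoplasmic pair was the opposite. The larger mitochondrial ribosomal RNA (AY172335.12) went the other way, with 874 and -6698. The NSC34 cytoplasmic library held 3569 cDNAs and between 0 and 2 cDNAs of each of the 8 genes, and 39 of the ribosomal RNA. A count of 0 there, as for Kif1b and Rbm9, allows up to 841 CPM. The counts of 1, 1 and 2 for Maml3, Dgki and Mtap1b allow more. The motoneuron cytoplasmic values of these 5 genes (421, 760, 821, 734 and 693 CPM) lie under 841 CPM, so at this depth no cytoplasmic difference was detectable for them. The nuclear values of Unc5c, Rbm9 and Kif1b were nearly equal, with log2 ratios of -0.034, -0.039 and -0.11. Their nuclear cDNAs were 140 against 76, 90 against 49 and 61 against 35, so their sign there was not settled. In the unfractionated libraries, Dlg2, Unc5c, Syt1, Kif1b and Rbm9 were called higher in the motoneuron-labelled libraries, and the other 4 higher in NSC34.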

How the results depend on the processing

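The main counts of 3570 calls, 2054 higher in the motoneuron-labelled libraries and 1516 in NSC34, became 3598 with RLE scaling, 3565 without 7SK, 3529 with IgG in the fit, 3297 with no filter and 2912 with at least 30 cDNAs. Library totals gave 1353 and 3490 (4843 in all), DESeq2 1704 (1285 and 419), and leaving out single libraries 1927 to 3101 (1305 to 1952, and 622 to 1231), the lowest without NSC34 replicate 1. No called gene changed direction as a call, but 51 ratios changed sign with library totals, 4 without motoneuron replicate 1, 3 without NSC34 replicate 1 and 233 of 2400 in the fractionated libraries. The fractionated libraries with a fraction block gave 0 calls, 0 and 0, of 5040 genes, and 222 at an unadjusted p under 0.05. No labels say that the replicate numbers pair the libraries. The correlation across genes of the replicate 1 deviations between cell types was -0.022, which cannot show whether the libraries were paired. A replicate block gave 3117 calls, 1880 and 1237. The interaction gave 11 calls without the library block, 8 with a higher and 3 with a lower intron share. Of the list members 374 were called, against 252 with DESeq2, 330 with at least 30 cDNAs, 421 with library totals and 278 to 359 on leaving out 1 library.

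Region differences (points, motoneuron-labelled minus NSC34) moved as follows. Noncoding was -2.87 without the most counted gene, -1.42 without the 10 most counted, -0.61 by crosslink positions, 0.0112 with equal gene weights (which fix this share by construction, since noncoding genes lie wholly in that part) and 0.164 without small noncoding and mitochondrial RNAs. Coding was -3.95 without either set of most counted genes, -4.11 by positions, -1.19 with equal weights and -4.02 without small RNAs. The 5'UTR was -0.0669 with equal weights; the 3'UTR -0.39 with equal weights and -3.86 without small RNAs. Introns were 8.96 without the 10 most counted, 8.60 by positions, 1.64 with equal weights and 7.92 without small RNAs.

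On leaving out 1 library, the difference ranged from 10.0 to 16.6 points in introns, -3.82 to -3.43 in coding sequence, -3.76 to -2.41 in the 3'UTR, -0.202 to -0.144 in the 5'UTR and -9.73 to -3.13 in noncoding RNAs.

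Of 169 named genes, 102 kept their direction and side of the threshold under every alternative that tested them other than the fractionated libraries, where none of the 128 tested was called. With library totals, Efna5 (-0.0055), Syt1 (-0.10), Bicd1 (-0.12), Luc7l2 (-0.0929) and Rbm9 (-0.13) changed sign, as did Hnrpll on leaving out 1 library (-0.0469 to 2.17, lowest without motoneuron replicate 1). In the fractionated libraries the log2 ratio changed sign for 7SK-ENSMUSG00000084722 (-2.43), 7SK-ENSMUSG00000084694 (-0.46), Xist (1.70), Maml3 (1.55), Tcf4 (0.93), Dgki (0.98), Mtap1b (0.67), Airn (0.54), Crmp1 (1.13), Raly (0.58), Sfrs1 (0.70), Tbk1 (0.0517), Pabpc1 (0.29), Pkm2 (0.48), Canx (1.47), H2afy (0.65), AY172335.9 (1.18), AY172335.12 (2.16) and Hnrnpr (0.26). The cause of these changes was not tested. Depth limits most the genes near 10 cDNAs and the second NSC34 library (99762 cDNAs).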
